A study of Homo sapiens with 3 samples.

Results

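Galectins are small lectins that bind β-galactose sugars on glycoproteins and glycolipids, and their messenger RNAs were examined here in HT-29 cells treated with interferon-γ (IFN-γ). The genes were LGALS1, LGALS2, LGALS3, LGALS4, LGALS8 and LGALS9, with LGALS3BP, which encodes a secreted glycoprotein bound by galectins. They were chosen by name, not by their values, and every probe set that the array annotation gives to 1 of these symbols alone was taken. This gave 12 probe sets for 7 genes, of 19065 probe sets and 11963 genes named in the same way. HT-29 is a widely used epithelial cell line from a human colon adenocarcinoma. Each of the 3 Affymetrix arrays measured a culture exposed for 24 h to 200 U/ml IFN-γ, after 24 h of growth at 50000 cells per cm2 in McCoy's medium with 10% serum and 5% CO2, and the series calls them biological replicates. IFN-γ is a cytokine of T and NK cells that acts on epithelial cells through JAK-STAT signalling. No untreated culture was analysed here, so every value is a level in treated cells and none is a response to IFN-γ.

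The family is grouped by the layout of its carbohydrate recognition domains. Prototype galectins such as galectin-1 and galectin-2 have a single domain and pair with each other, galectin-3 joins its domain to a long flexible tail, and galectin-4, galectin-8 and galectin-9 carry a pair of different domains on 1 chain. Galectins lack a signal peptide and leave the cell by an unconventional route. Outside the cell they cross-link glycoproteins, and inside it several of them mark damaged endosomes and lysosomes by binding sugars that have become exposed to the cytosol. In the gut, galectin-4 is known as an epithelial galectin of the brush border, and LGALS9 and LGALS3BP are known as genes that interferons can induce.

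Both of these interferon-inducible genes held a match to the IRF element, a pair of GAAA half-sites separated by 2 bases on either strand, near the start site, and their promoters are shown for that reason. Promoter windows of 300 bases, from 250 bases before the start site to 50 after, were taken from RefSeq (GRCh38.p14). They covered 6 of the 7 genes with 8 windows, LGALS8 having several start sites, and LGALS1 had no window in the table used. The stretches below run 5′ to 3′ on the gene's strand from 150 bases before the start site to 20 after, and capitals mark the match.
LGALS3BP: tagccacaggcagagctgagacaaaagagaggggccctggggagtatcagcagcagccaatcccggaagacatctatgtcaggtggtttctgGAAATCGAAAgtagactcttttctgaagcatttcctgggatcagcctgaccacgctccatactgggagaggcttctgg
LGALS9: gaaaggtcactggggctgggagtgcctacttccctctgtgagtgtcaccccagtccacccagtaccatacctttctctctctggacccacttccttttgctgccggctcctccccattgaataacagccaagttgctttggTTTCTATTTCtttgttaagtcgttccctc
The LGALS3BP stretch is chr17:78979904-78980073 on the minus strand, and its match begins 58 bases before the start site, in the orientation of the gene. The LGALS9 stretch is chr17:27631038-27631207 on the plus strand, and its match begins 9 bases before the start site, on the opposite strand. The same pattern occurred in 3.57% of all 35116 promoter windows and in no window of LGALS2, LGALS3, LGALS4 or LGALS8. A match describes the letters only, and the absence of one says nothing about IRF factors at these genes. As the arrays hold treated cultures alone, the matches could not be set against a change in expression.

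In the deposited order, probe sets of the same gene had only weakly related signals, and the galectin values rest on an order inferred from the data. Across 4310 genes with several probe sets, r between the log2 signals of each gene's first pair of probe sets was 0.19 as deposited and 0.60 in the order used. The points of these correlations are genes, not independent replicates. The order was also checked around each galectin probe set, within 400 rows either way, by comparing the neighbouring probe sets with those of the same genes elsewhere in the table. In these windows r lay between 0.44 and 0.70 with the order used, and between -0.09 and 0.44 with the names moved by 1 to 3 rows. For 12 of 12 galectin probe sets the window's highest r was at the order used. As the order was inferred from the same data, this check is not independent of it. The windows of the adjacent LGALS8 probe sets overlap almost entirely and are not separate checks.

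**Figure D1:**
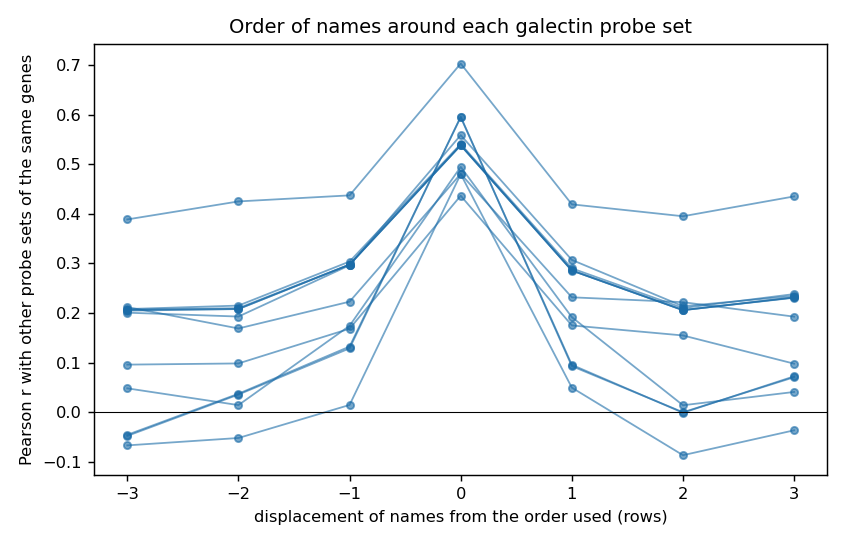
Pearson r (vertical axis) between the log2 signals around each galectin probe set and those of the same genes elsewhere in the table, against the displacement of the names in rows (horizontal axis), with 1 line for each of the 12 galectin probe sets. Every line peaks at 0, the order used, at r between 0.44 and 0.70.

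A signal was judged against a background limit, the 95th percentile of 47 measured genes listed as restricted to other tissues and called foreign below. In replicates 1, 2 and 3 it stood at signals of 485, 484 and 305, while the median signals of the arrays were 137, 144 and 141. A probe set was called detected where limma's one-sided test of log2 signal over the limit gave an adjusted p under 0.05, with Benjamini-Hochberg adjustment over all 19065 probe sets. The limit is strict and is not a level of noise alone, because 2 of the 47 genes were detected themselves. These were SERPINA1 at 3254 ± 897 and KRT10 at 1726 ± 388 (SD, n = 3 each). Without these genes it was 261, 252 and 176, and calls that change with this lower limit, chosen after the data were seen, are given beside the result for the galectins and the genes named below. The deposited signals have no count behind them, and their precision is limited by the number of arrays. For each p-value and SE, limma drew the variance at least in part from a trend with level over all 19065 probe sets. At the limit, the SE followed level and hardly a probe set's own 3 values. GAL3ST1 and PTPRC, at -5.09 and -5.12 log2 units, had SEs of 0.631 and 0.632. Their SDs of log2 signal were 0.697 and 1.39. The SEs and p-values at the limit therefore do not measure the spread of a probe set's own values. Without that trend the limma adjusted p was 0.00039 for LGALS3, 7.1e-05 for LGALS4, 4.3e-05 for LGALS3BP and 0.033 for LGALS8 208934_s_at. The p-values speak for these 3 samples only.

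Galectin-3, galectin-4, galectin-8 and the galectin-binding protein had a detected probe set in the treated cultures. Galectin-1 and galectin-2 were below the limit on every array, and galectin-9 lay just above it. In all, 4 of the 12 galectin probe sets were detected, or 33.3%, beside 21.8% of all probe sets. At the lower limit 6 of 12 were detected, beside 33.4% of all probe sets, and the LGALS9 probe set and a further LGALS8 probe set were added. The median log2 signal over the limit was -0.07 for the galectin probe sets and -1.46 for all probe sets. Signals of different probe sets depend on their own probes, so the genes are not ranked against each other by level.

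**Figure D2:**
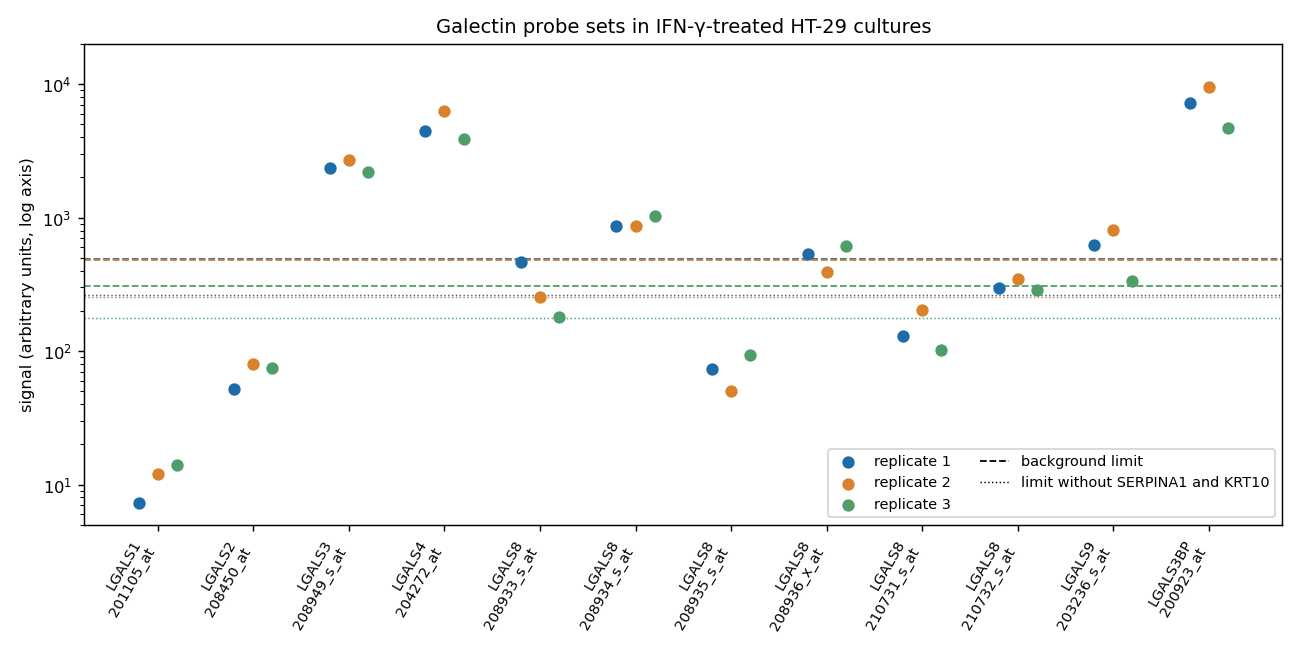
Signal on a log axis in arbitrary units for each galectin probe set, with 1 point per array and the background limit of each array as a dashed line (dotted without SERPINA1 and KRT10). LGALS3, LGALS4, LGALS3BP and the LGALS8 probe set 208934_s_at lie above the dashed limits on all 3 arrays, LGALS9 lies just above them, and LGALS1 and LGALS2 lie below the dotted limits on all 3.

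LGALS1 encodes galectin-1, a prototype galectin that is abundant in fibroblasts and endothelium and induces death of activated T cells. Its probe set 201105_at had signals of 7.30, 12.1 and 14.1 in replicates 1, 2 and 3. All 3 values were far under the limits, with a mean of 11.1 ± 3.47 (SD, n = 3) and -5.27 ± 0.64 (SE) log2 units relative to the limit. The gene had no other named probe set, so this value has no second measurement on the array. Fibroblast and endothelial markers, from the cell types in which the gene is abundant, gave 0 of 19 and 0 of 8 probe sets detected by limma. The share of all probe sets was 21.8%. A link between these markers and the LGALS1 level was not tested.

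LGALS2 encodes galectin-2, a prototype galectin of the gastrointestinal epithelium. Its probe set 208450_at had signals of 52.0, 79.6 and 75.2 in replicates 1, 2 and 3. None reached the limit, and the log2 signal was -2.61 ± 0.47 (SE) relative to it. It also stayed under the lower limit on every array (-1.74 log2 units).

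LGALS3 encodes galectin-3, the only galectin with a domain joined to a collagen-like tail, which oligomerises on glycoproteins and also acts in the nucleus and cytosol. Its probe set 208949_s_at had signals of 2338, 2683 and 2212 in replicates 1, 2 and 3. The 3 cultures lay close together, the highest being 1.21 times the lowest, and all were above the limit. The mean was 2411 ± 244 (SD, n = 3), above the limit by 2.53 ± 0.30 (SE) log2 units (limma adjusted p = 6.0e-16). With the limit at the 99th percentile of the foreign genes, which SERPINA1 and KRT10 set, LGALS3 lay at 0.01 log2 units and was not called.

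LGALS4 encodes galectin-4, a tandem-repeat galectin of intestinal epithelium that binds sulfated glycolipids and takes part in apical transport. Its probe set 204272_at had signals of 4437, 6264 and 3855 in replicates 1, 2 and 3. All were above the limit, and replicate 2 was highest at 1.62 times replicate 3. The gene exceeded the limit by 3.52 ± 0.35 (SE) log2 units (limma adjusted p = 1.1e-22). Outside the settings that change the names it was called in each of 13 alternatives, with values from 0.997 to 4.63 log2 units.

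LGALS9 encodes galectin-9, a tandem-repeat galectin that binds the T cell receptor TIM-3. Its probe set 203236_s_at had signals of 628, 813 and 333 in replicates 1, 2 and 3. It was above the limit on all 3 arrays, by 0.37, 0.75 and 0.13 log2 units, but replicate 3 was less than replicate 2 by a factor of 2.44. The mean of 592 ± 242 (SD, n = 3) was 0.42 ± 0.28 (SE) log2 units over the limit and was not called (limma adjusted p = 0.283). It was called when replicate 3 was left out (0.56 log2 units, limma adjusted p = 0.0261) and at the lower limit (1.29 log2 units, limma adjusted p = 5.8e-05). Over its 12 alternatives outside the name settings the limma adjusted p ran from 5.8e-05 to 1. Its detection therefore turned on where the limit was drawn and on which arrays were kept. The near-identical genes LGALS9B and LGALS9C had no probe set named for them alone, and their RNA could contribute to this signal.

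LGALS3BP encodes a secreted scavenger receptor cysteine-rich protein, also called Mac-2 binding protein, that binds galectin-1, galectin-3 and matrix proteins. Its probe set 200923_at had signals of 7164, 9463 and 4690 in replicates 1, 2 and 3. All 3 were well above the limit, although replicate 2 was 2.02 times replicate 3. The mean was 7106 ± 2387 (SD, n = 3), above the limit by 4.04 ± 0.38 (SE) log2 units (limma adjusted p = 1.3e-24). It was called in each of its 13 alternatives outside the name settings, at 1.52 to 5.15 log2 units.

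LGALS8 encodes galectin-8, a tandem-repeat galectin that recruits the autophagy receptor NDP52 to damaged vesicles, and its 6 probe sets disagreed. The probe set 208934_s_at had signals of 870, 869 and 1026 in replicates 1, 2 and 3, which were above the limit on every array. It lay 1.15 ± 0.28 (SE) log2 units over the limit and was the only one of the 6 called (limma adjusted p = 0.00011). It was not called with the limit taken from every probe set of the foreign genes (0.20 log2 units) or at the 99th percentile, where it lay below the limit (-1.37).

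The probe set 208936_x_at, whose suffix marks a design that can cross-hybridise, had signals of 537, 394 and 610. It was above the limit in replicates 1 and 3 but not in replicate 2, and was not called (0.28 log2 units, limma adjusted p = 0.606). At the lower limit it was called (1.16 log2 units, limma adjusted p = 0.00036), while its adjusted p over 11 alternatives ran from 0.00036 to 1.

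The other LGALS8 probe sets were under the limit on all 3 arrays. The probe set 208933_s_at had 464, 255 and 179, the widest spread of all 12 galectin probe sets, with replicate 1 at 2.59 times replicate 3. The probe set 210732_s_at was even across arrays, at 297, 347 and 288. Both were above the lower limit on all 3 arrays without being called there (limma adjusted p = 0.415 and 0.144). The remaining pair stayed under both limits. The signals were 129, 202 and 102 for 210731_s_at and 73.6, 49.9 and 92.8 for 208935_s_at. A reading of LGALS8 therefore depended on which probe set was taken, from -2.57 to 1.15 log2 units relative to the limit. LGALS8 has several start sites in RefSeq, and the sources used here do not tie its probe sets to separate transcripts.

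Other members of the galectin family were not detected. LGALS13 and LGALS14, galectins of the placenta, had mean signals of 127 ± 35.5 and 153 ± 20.5 (SD, n = 3 each). CLC, the Charcot-Leyden crystal galectin of eosinophils, had 135 ± 30.4, and the galectin-related LGALSL had 52.1 ± 33.3 (SD, n = 3 each). All 4 were below the limit and the lower limit on every array. Limma gave 0 of 4 at an adjusted p under 0.05, beside 21.8% of all probe sets, and 0 at an unadjusted p under 0.05. With only 4 probe sets, a count of 0 cannot be told apart from that share. LGALS7 and LGALS7B share a probe set named for both genes and were left out. LGALS12 and LGALS16 had no probe set named for them alone.

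Over the 12 galectin probe sets the SD of log2 signal had a median of 0.41, against 0.28 for the 4152 detected ones, whose quartiles were 0.18 and 0.41. Without replicate 2 the medians lay close together, at 0.24 for the galectins and 0.22 for the detected probe sets, over 2 arrays. They stayed apart without replicate 1, at 0.40 and 0.31, and without replicate 3, at 0.33 and 0.17. Among the genes clearly above the limit, LGALS3 was steady with an SD of 0.14, while LGALS4 had 0.36 and LGALS3BP had 0.51. LGALS9 had an SD of 0.66, larger than that of 94.2% of detected probe sets. Most of the wider spreads, those of LGALS1 and of several LGALS8 probe sets among them, belong to probe sets that were not detected, and over all such probe sets the median SD was 0.45.

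LGALS3, LGALS4, LGALS9 and LGALS3BP shared the order of their arrays, highest in replicate 2 and lowest in replicate 3. LGALS9 stood at 0.55 log2 units over its own mean in replicate 2 and -0.73 in replicate 3, and LGALS3BP at 0.47 and -0.54. With 2 LGALS8 probe sets, 210731_s_at and 210732_s_at, this order was found in 6 of the 12 galectin probe sets. It was also found in 25.2% of all detected probe sets, and 39.5% of those had their lowest value in replicate 3. These shares leave out undetected probe sets, while LGALS9, 210731_s_at and 210732_s_at were not detected. The called LGALS8 probe set 208934_s_at did not follow this order and was highest in replicate 3. The order is that of the signals. Relative to each array's limit, lowest in replicate 3, LGALS3 was highest in replicate 3 (2.86 log2 units). On that scale LGALS4 and LGALS3BP were lowest in replicate 1 (3.19 and 3.88), and LGALS9 kept its order. Differences between the cultures, their RNA and their hybridisation cannot be told apart with 1 array per culture.

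**Figure D3:**
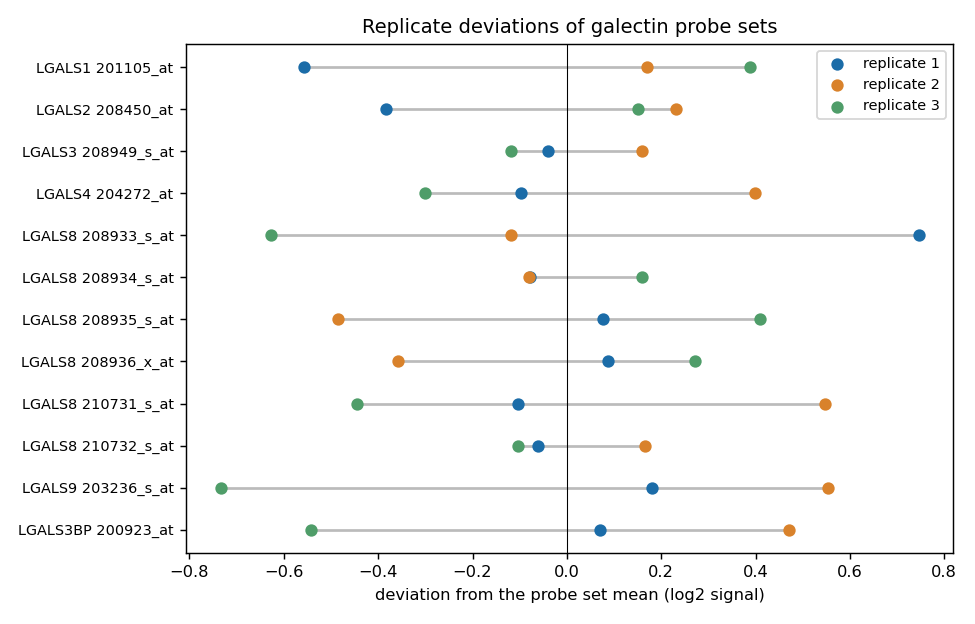
Deviation of each array from the probe set's own mean, in log2 signal (horizontal axis), for the 12 galectin probe sets (vertical axis), with 1 point per replicate joined by a line. LGALS9 and LGALS3BP have replicate 2 highest, at 0.55 and 0.47, and replicate 3 lowest, at -0.73 and -0.54.

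Galectins bind the galactose-ended branches that Golgi enzymes build on N-glycans. The list for this synthesis also counts the sugar transporters SLC35A2 and SLC35A3 and the precursor enzyme GFPT1. These were all detected and are named after their values were seen. Of 34 probe sets of N-glycan branching and poly-N-acetyllactosamine synthesis 11 were detected (32.4%, beside 21.8% of all probe sets), for 8 of 19 genes. MGAT5, which adds the branch richest in galectin ligands, had signals of 1243, 1038 and 951 in replicates 1, 2 and 3. It exceeded the limit by 1.37 log2 units (limma adjusted p = 3.4e-06), but was called on 1 of 2 probe sets only. MGAT1, which starts complex N-glycans, had 524 ± 243 (SD, n = 3) and was not called. MGAT3, which adds the bisecting residue, was far under the limit at 55.8 ± 35.5 (SD, n = 3). The galactosyltransferase B4GALT1 had 342 ± 60.1 and the chain-extending enzyme B3GNT2 had 466 ± 76.8 (SD, n = 3 each), and neither was called. All genes together had 25.8% detected at the limit and 38.5% at the lower limit, for comparison with the gene counts of each list. At the lower limit 12 of the 19 genes were detected, MGAT1 and B3GNT2 among them but not B4GALT1.

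The list of O-glycan core synthesis had 6 of 11 genes detected, and 6 of 15 probe sets (40.0%, beside 21.8% of all probe sets). GCNT3, the mucin-type branching enzyme of the gut, had signals of 6294, 5353 and 7294 in replicates 1, 2 and 3, which exceeded the limit by 3.92 log2 units (limma adjusted p = 2.8e-24). C1GALT1C1, the chaperone of the core 1 enzyme, had 1830 ± 576 (SD, n = 3) and was called, while the enzyme itself, C1GALT1, had 449 ± 173 (SD, n = 3) and was not. At the lower limit C1GALT1 was called too (0.92 log2 units, limma adjusted p = 0.0062), and the list had 8 of 11 genes. GCNT1, which makes the core 2 branch that galectin-1 recognises on T cells, had 75.6 ± 27.8 (SD, n = 3) and was under the limit on all arrays.

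Genes for sialic acid and fucose at glycan ends were mostly under the limit. Of 35 probe sets 2 were called (5.71%, beside 21.8% of all probe sets), for 2 of 18 genes. Besides enzymes that add these sugars, the list holds the sialidase NEU1, the sialic acid-activating enzyme CMAS and the transporter SLC35A1. ST6GAL1, whose α2,6-linked sialic acid blocks binding by galectin-1, had 225, 169 and 240 in replicates 1, 2 and 3. All 3 were under the limit, and 1 of 3 was above the lower limit. ST3GAL1 had 154 ± 36.0 and ST3GAL4 had 123 ± 65.1, and the core fucosyltransferase FUT8 had 63.0 ± 12.9 (SD, n = 3 each). The detected genes were the fucosyltransferase FUT4 at 1729 and the CMP-sialic acid transporter SLC35A1 at 1172, as mean signals, both named after their values were seen. At the lower limit 7 of 18 genes were detected (38.9%, beside 38.5% of all genes). NEU1, CMAS and SLC35A1 were among them, NEU1 and CMAS also named after their values were seen. Counted by genes, the list lay under the share of all genes at the stricter limit alone. Counted by probe sets it lay under at both limits, with 8 of 35 called at the lower limit, beside 33.4% of all probe sets.

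Glycolipid enzymes were detected for 2 of 8 probe sets, beside 21.8% of all probe sets, and for 2 of 6 genes at either limit. These were UGCG at a mean signal of 784 and UGT8 at 743, both named after their values were seen. UGT8 makes the galactosylceramide from which sulfatide, a ligand of galectin-4, is formed. GAL3ST1, the sulfotransferase of the next step, had 13.1 ± 5.50 (SD, n = 3) and was far under the limit. B4GALNT1, which makes gangliosides that galectin-1 can bind, had 116 ± 15.96 (SD, n = 3).

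Glycoproteins known as galectin ligands on the cell surface and in lysosomes gave 26 of 65 probe sets detected (40.0%, beside 21.8% of all probe sets), for 14 of 27 genes, or 19 at the lower limit. LAMP1, a lysosomal membrane protein rich in poly-N-acetyllactosamine, had signals of 8020, 7402 and 8326 in replicates 1, 2 and 3, above the limit by 4.25 log2 units (limma adjusted p = 5.4e-25). LAMP2 had 944 ± 152, the hyaluronan receptor CD44 had 2759 ± 641 and the integrin chain ITGB1 had 5846 ± 2005 (SD, n = 3 each), and all were called. ITGB1 was called on 1 of 5 probe sets only and LAMP2 on 1 of 3, while CD44 was called on 6 of 8 and LAMP1 on 3 of 4. CEACAM5, the carcinoembryonic antigen, had 680 ± 251 (SD, n = 3) and was not called (limma adjusted p = 0.0541), but it was called at the lower limit (1.51 log2 units, limma adjusted p = 5.7e-06). The intestinal cadherin CDH17 was under the limit at 14.3 ± 3.35 (SD, n = 3).

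No matrix ligand and no immune receptor of galectins was detected at the limit. Limma called 0 of 32 matrix probe sets, beside 21.8% of all probe sets, and 0 at an unadjusted p under 0.05. FN1, fibronectin, had 123 ± 46.8, and the laminin chain LAMA5 had 571 ± 288 (SD, n = 3 each). At the lower limit 3 of 11 matrix genes were called (27.3%, beside 38.5% of all genes), LAMA5, LAMC1 and COL4A1, named after their values were seen. Limma called 0 of 17 immune receptor probe sets, beside the same 21.8%, and 0 at an unadjusted p under 0.05. PTPRC, the leukocyte phosphatase CD45 that galectin-1 binds, had 16.1 ± 14.6 (SD, n = 3). HAVCR2, which encodes TIM-3, had no probe set named for it alone.

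Genes that act with galectins at damaged lysosomes, and in vesicle sorting, had the largest detected share of these lists, with 14 of 25 probe sets (56.0%, beside 21.8% of all probe sets) for 11 of 17 genes, or 13 at the lower limit. CALCOCO2, which encodes NDP52, the receptor that galectin-8 recruits, had signals of 2406, 2188 and 1525 in replicates 1, 2 and 3, above the limit by 2.27 log2 units (limma adjusted p = 1.0e-13). TRIM16, a ubiquitin ligase that galectin-3 recruits, had 484 ± 40.3 (SD, n = 3) and was not called (limma adjusted p = 0.817), but it was called at the lower limit (1.09 log2 units, limma adjusted p = 0.00047). Among proteases that cut galectin-3, MMP7 was the only one detected at the limit, for 1 of 7 genes (14.3%, beside 25.8% of all genes), with signals of 2250, 2875 and 3154 in replicates 1, 2 and 3 (2.72 log2 units above the limit, limma adjusted p = 1.9e-17). MMP14 had 398 ± 64.9 (SD, n = 3) and was above the limit on 1 of 3 arrays, and it was called at the lower limit (0.80 log2 units, limma adjusted p = 0.00998), where 2 of 7 genes were.

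**Figure D4:**
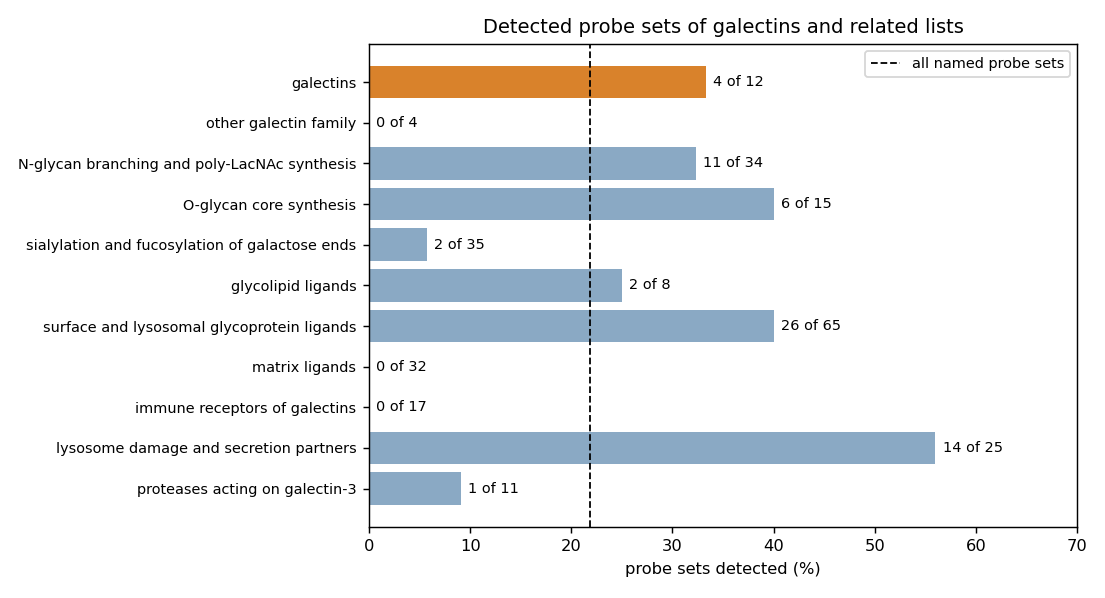
Share of probe sets detected (horizontal axis, %) in the galectins and in each related gene list (vertical axis), with counts beside the bars and the 21.8% of all probe sets as a dashed line. Galectins reached 33.3%, the lysosome damage and secretion list 56.0%, and the sialylation and fucosylation list 5.71%.

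The labelled cell type was checked on its markers. Intestinal epithelial markers were detected for 6 of 10 genes (EPCAM, KRT8, KRT18, KRT19, KRT20 and CDH1), while CDX1, CDX2, VIL1 and CDH17 were not. VIL1 was called at the lower limit (1.34 log2 units, limma adjusted p = 6.2e-05), which gave 7 of 10 genes. Limma called 0 of 9 T and NK cell, 0 of 4 B and plasma cell, 0 of 19 fibroblast and 0 of 8 endothelial probe sets. The share of all probe sets was 21.8%. At an unadjusted p under 0.05 limma gave 0 of these markers too. The myeloid list gave 1 of 5 genes, LYZ, which secretory cells of the gut also express, with summed list signals of 7117, 7046 and 14825 in replicates 1, 2 and 3, while CD14, CSF1R, ITGAM and S100A8 were not detected.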

How the data were processed

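Expression was measured on 3 Affymetrix arrays of IFN-γ-treated HT-29 cultures. The values deposited by the authors are linear signal intensity per probe set, for which the submitters' processing notes name MAS5 and Affymetrix Expression Console 1.1, and the mean of each array without its highest and lowest 2% was 500.3. The scaling target, background step, presence calls and genome build are not given in the sources used here.

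Of 22283 rows, 6 were empty and were dropped. The names were then placed in the order of 15 unnamed values, the 100 probe sets numbered from 200000, 493 with lower numbers, 21622 others in file order and 47 unnamed values. Only probe sets with 1 symbol were named, and 1043 with several were not. Signals were taken to log2 with no pseudocount, each array's limit was subtracted, and limma 3.58.1 (R 4.3.3) fitted an intercept per probe set with a variance trend, tested one-sided. The code was tested on simulated data. The p-values leave out the error of the limit itself. It came from 47 measured genes of 62 listed, each at its brightest probe set, and differs from an earlier list for these data.

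The galectins, the gene lists and the tests were chosen with earlier results of these data known. Named genes are all galectin probe sets, the other measured galectins and 30 related genes chosen by name, of which 28 had a probe set and were read at the brightest, besides those said to be named after their values were seen. A gene of a list counted as detected where any probe set was. With 1 group, no groups were compared.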

Additional observations from a re-analysis of the deposited data

How the results depend on the processing

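The order of the names decided the calls. As deposited, 1 row earlier and 1 row later, 0, 1 and 1 galectin probe sets were called in place of 4, 0, 22 and 23 related ones in place of 62, and r over 4310 genes was 0.19, 0.17 and 0.17 in place of 0.60. With the deposited names the signal relative to the limit was -3.60 for LGALS3, -4.95 for LGALS4, -1.64 for LGALS9, -4.00 for LGALS3BP, and -7.92 and -6.11 for LGALS8 208934_s_at and 208936_x_at (log2 units here and below). One row earlier it was -4.49 for LGALS4, -2.45 for LGALS9, -0.40 for LGALS3BP, and 0.57, -2.29 and -4.28 for LGALS8 208933_s_at, 208934_s_at and 208936_x_at. One row later it was 0.60 for LGALS1, 0.68 for LGALS2, -1.69 for LGALS3, -7.21 for LGALS4, -5.93 for LGALS9, -0.10 for LGALS3BP and -4.63 for LGALS8 208934_s_at.

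The level of the limit moved the weaker galectins. At the 99th percentile 2 galectin and 6 related probe sets were called, with LGALS9 at -2.10 and LGALS8 208934_s_at and 208936_x_at at -1.37 and -2.24. With the limit from every probe set of the foreign genes 40 related ones were called, with LGALS9 at -0.53 and LGALS8 208936_x_at at -0.66. LGALS8 208933_s_at and 210732_s_at turned to 0.32 and 0.48 at the 90th percentile and to 0.29 and 0.45 without SERPINA1 and KRT10. Over all probe sets the calls numbered 4152, with 6446 at the 90th percentile, 503 at the 99th, 2344 with every foreign probe set and 6370 without those genes. Without probe sets suffixed _x_at or _s_at, 2 of 4 galectin and 35 of 105 related probe sets were called. This setting tested fewer probe sets and also moved the limit by -1.11 log2 units on average, as 33 foreign genes were left behind it.

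Leaving out single replicates gave 4 to 5 galectin calls, 53 to 61 related calls and a median galectin SD of 0.24 to 0.40, an SD over 2 arrays. Without replicate 3, LGALS8 208936_x_at lay at -0.075. Quantile normalization, a pseudocount of 16, no variance trend, a filter on dim probe sets and 1 probe set per gene changed no call of a galectin probe set that they tested. No paired analysis was possible because the series has 1 group. No cause was tested.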
